A study of Mus musculus with 6 samples.

Results

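The EGF-family ligands examined here are 8 genes, Areg, Ereg, Hbegf, Btc, Tgfa, Epgn, Nrg1 and Nrg2, found by their symbols among the 39179 genes listed for the Ocy454 cells. They were chosen for their family and not for their response, although earlier results of these data were known. Ocy454 is a mouse osteocytic cell line, and a single-cell subclone was used, so all libraries come from 1 clone. The cells were grown for 14 days at 37 °C and then treated for 4 h with vehicle (PBS with 25 mM HCl), with PTH 1-34 at 1 nM, or with YKL-05-093 at 0.5 µM, and 2 libraries were made for each of these 3 conditions. This vehicle is the one the labels give; the methods of the study name DMSO as the solvent of its compounds in culture, and which of them the vehicle wells held could not be settled. PTH 1-34 is an active fragment of parathyroid hormone, and YKL-05-093 is a synthetic compound that blocks salt-inducible kinases (SIKs). In the study's in vitro panel of recombinant kinases, this compound also engaged many other kinases, so it is not selective for SIKs. Among them were EGFR, the receptor of most of these ligands, and ERBB2, SRC, PDGFRB, FGFR2, MEK1 and MEK2. The study also treated cells deficient in SIK2 and SIK3 with it. It reports that most genes it measured depended on these kinases for their response, and that some did not. The comparisons ask how PTH and the SIK inhibitor each changed the messenger RNA of the cells.

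EGF-family ligands are made as membrane-anchored precursors, and metalloproteases such as ADAM17 release the active growth factor from the cell surface. Areg, Ereg, Hbegf, Btc, Tgfa and Epgn bind EGFR, and Hbegf, Btc and Ereg also bind ERBB4, whereas the neuregulins Nrg1 and Nrg2 bind ERBB3 and ERBB4. ERBB2 has no ligand of its own and pairs with the other receptors, which then signal through RAS and ERK. In osteoblasts, amphiregulin (Areg) is a well-known early target of PTH, induced through cAMP and the transcription factor CREB, which binds the palindrome TGACGTCA and shorter sites that hold one arm of it.

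For this reason the promoter windows of Areg and of Tgfa are shown side by side. Tgfa was the only ligand called as changed, with PTH, and that call was lost with a lower filter on the level. RefSeq windows of 300 bases, from 250 before to 50 after the start (GRCm38.p6), were held for 4 of the 8 ligands, Areg, Btc, Epgn and Tgfa. Both strands were searched for TGACGTCA and for the short sites TGACG and CGTCA, which also lie within it. The Areg window (chr5:91139349-91139648, plus strand) holds the whole palindrome, shown in capitals, 61 bases before the start, and 1 further short site outside it. The Tgfa window (chr6:86194972-86195271, plus strand) holds neither the palindrome nor a short site.
Areg: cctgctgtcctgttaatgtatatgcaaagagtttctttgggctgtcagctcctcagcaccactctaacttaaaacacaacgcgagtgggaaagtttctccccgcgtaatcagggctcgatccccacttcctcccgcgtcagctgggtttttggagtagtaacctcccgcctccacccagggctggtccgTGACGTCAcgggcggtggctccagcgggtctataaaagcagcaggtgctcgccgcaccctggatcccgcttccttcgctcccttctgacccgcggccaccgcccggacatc
Tgfa: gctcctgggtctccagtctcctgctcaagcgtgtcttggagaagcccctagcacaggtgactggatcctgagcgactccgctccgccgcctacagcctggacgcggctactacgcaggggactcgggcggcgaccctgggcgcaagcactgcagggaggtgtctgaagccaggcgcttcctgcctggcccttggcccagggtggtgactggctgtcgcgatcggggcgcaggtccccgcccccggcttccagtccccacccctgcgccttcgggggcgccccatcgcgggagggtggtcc
The windows of Btc and Epgn hold 1 short site each. Of all 32851 windows, 1.79% hold the palindrome and 20.8% a short site. These letters say nothing about which factors were bound in the cells, and sites outside the windows were not searched.

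Values are RPKM, read numbers divided by gene length and library total, and the reads behind each value were recovered from them. A gene at 3 reads or fewer was taken as not detectable, a floor that covers counting error only. Library totals ran from 17505798 to 27983585 reads, and mitochondrial transcripts took 11.6% to 16.5% of the reads. The vehicle libraries differed more from each other than the treated ones did, with a median absolute log2 difference over genes of 0.333, against 0.108 for PTH and 0.103 for YKL-05-093. Of 13 osteocyte and osteoblast markers, 10 were above the floor in every library, among them Dmp1 (0.376 to 1.15 RPKM), Phex (0.764 to 4.93 RPKM) and Col1a1. Sost, the sclerostin gene that defines mature osteocytes, reached at most 0.0519 RPKM and was at or under the floor in all libraries, as was Fgf23. Some bone markers moved with PTH: Bglap (osteocalcin) and Pdpn were called higher, by 1.58 and 1.44 on the log2 scale, and Sp7 and Mef2c lower, at -1.97 and -1.43. Over all genes tested, 1.91% were called with PTH. After YKL-05-093, 0 of the 10 tested were called, which is near the share over all genes, 0.666%. Whether these marker changes had a part in the ligand values was not tested. The 5 epithelial markers, of a cell type rich in EGF-family ligands, summed to 0.258 to 0.521 RPKM with vehicle, 0.446 to 0.585 with PTH and 0.409 to 0.410 with YKL-05-093, and 4 of them were at or under the floor throughout. The endothelial markers summed to 0.513 to 0.652 RPKM with vehicle, 0.910 to 1.16 with PTH and 1.48 to 1.79 with YKL-05-093, nearly all of it Kdr, which was called higher after YKL-05-093, whereas Pecam1 had 5 to 12 reads a library and Cdh5, which defines these cells, had 0 in all 6. Adipocyte and muscle markers summed to at most 0.422 RPKM in any library, and of the macrophage and osteoclast markers Ctsk and Cd68 were above the floor in all libraries, while Ptprc, which defines blood cells, had 2 to 6 reads a library. In bulk RNA, fewer cells that make a transcript and less of it in each cell cannot be told apart, and nothing in the labels says whether the libraries of a condition came from separate cultures, so that p-values measure the spread between these libraries.

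With vehicle, Nrg1, the neuregulin, had the highest level of the family by the deposited values, and 5 of the 8 ligands were faint or undetectable. The Nrg1 gene lies on chromosome 8 (chr8:31814551-32884029, minus strand, GRCm38), and its level with vehicle was 5.11 ± 0.37 RPKM (SD, n = 2). This was above 69.0% of the 26214 genes that had a value over 0 in any library. Hbegf, the heparin-binding ligand, whose gene lies on chromosome 18, followed at 1.26 ± 0.029 RPKM. Tgfa, the transforming growth factor alpha gene (chr6:86195223-86275719, plus strand), came next at 0.387 ± 0.141 RPKM. Ereg, encoding epiregulin, stood at 0.237 ± 0.017 RPKM, Btc, encoding betacellulin, at 0.228 ± 0.153 RPKM and Epgn, encoding epigen, at 0.106 ± 0.034 RPKM. Areg was at 0.0300 RPKM on average and Nrg2, a neuregulin of chromosome 18, at 0.

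The first steps of this order, from Nrg1 to Hbegf to Tgfa, were larger than the spread of the libraries, whereas the vehicle values of Btc overlapped those of Tgfa, Ereg and Epgn. The lower part of the order depended on the library: by vehicle 2 alone, Btc ranked above Tgfa and Ereg, and 5 of the 8 ligands kept their place. The levels also rest on the gene lengths behind the deposited values. For Nrg1 that length is 2094 bases, whereas its merged exons in the GENCODE M21 annotation span 10351 bases, and with the longer length its vehicle mean would be 1.03 RPKM. With the annotated lengths of all 8 genes the order was unchanged, but Hbegf would then be at 0.616 RPKM, so that the lead of Nrg1 would be narrower.

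**Figure D1:**
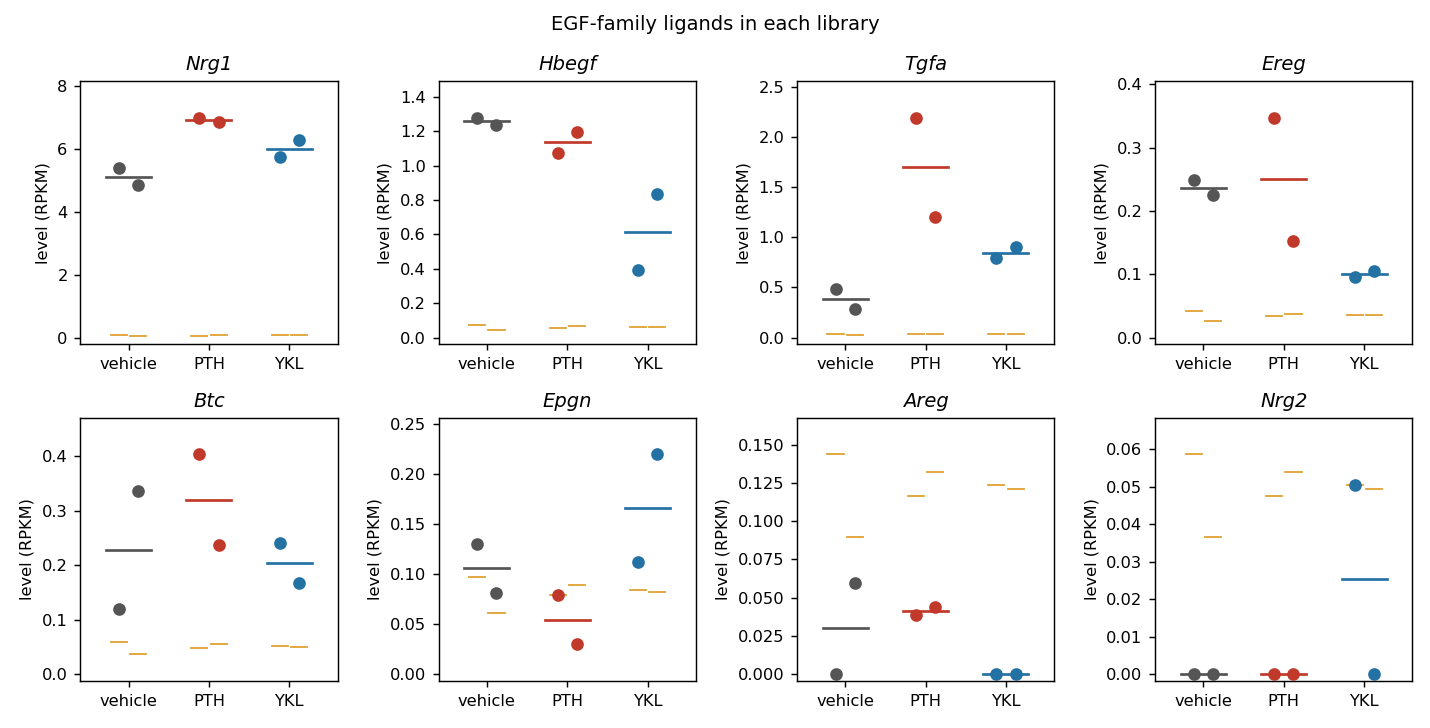
Level of each of the 8 ligands (RPKM, linear axes from 0 that differ between panels) in the libraries of the 3 conditions. Dots are libraries, long lines are condition means (n = 2), and the short orange marks give the level of 3 reads in each library. Both PTH values of Tgfa lie above both YKL-05-093 values, and these lie above both vehicle values, whereas all values of Areg and Nrg2 lie at or under the marks.

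The Tgfa transcript was higher in both PTH libraries than in any other library, and whether it passed the test depended on the filter and on single libraries. TGF-alpha is a high-affinity ligand of EGFR. Its level was 0.487 and 0.288 RPKM in the vehicle libraries, 2.19 and 1.20 RPKM after PTH, and 0.794 and 0.902 RPKM after YKL-05-093. The 3 conditions did not overlap, with YKL-05-093 between vehicle and PTH. These values rest on 36 and 34 reads with vehicle, 200 and 97 reads with PTH, and 68 and 79 reads with YKL-05-093. Both vehicle libraries were below the 0.5 RPKM that a gene had to reach in 2 libraries to be tested, so Tgfa entered the test only through the treated libraries.

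Calls required an adjusted p under 0.05 and more than a 2-fold change, by limma with Benjamini-Hochberg adjustment over all genes tested. Of the 8 ligands, 3 could be tested, Hbegf, Tgfa and Nrg1. With PTH, the log2 fold change of Tgfa was 1.86 on the log2(RPKM + 0.1) scale (SE 0.33, 95% interval 1.08 to 2.63, adjusted p = 0.0368), which is 3.62-fold on that scale. With the filter at 0.1 RPKM, which the vehicle libraries also pass, the adjusted p was 0.0539 and Tgfa was not called. This 1 call stands beside 272 genes called among 14261 tested (1.91%), of which 156 were higher (1.09%), and 2718 genes (19.1%) whose PTH libraries all lay above those of vehicle. The call was also lost with no filter (adjusted p = 0.235), with the variance trend on the mean value (adjusted p = 0.144), without PTH replicate 1 (log2 fold change 1.45, adjusted p = 0.427) and without PTH replicate 2 (2.26, adjusted p = 0.110). With a pseudocount of 1 RPKM the log2 fold change was 0.94 (adjusted p = 0.0792). In all, the call was lost in 6 of 13 refits, all with the same direction.

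After YKL-05-093, Tgfa did not pass the test. Its log2 fold change against vehicle was 0.99 (SE 0.28, 95% interval 0.33 to 1.65, adjusted p = 0.281 by limma), although both libraries lay above both of vehicle, as they did for 15.7% of the genes tested in that comparison. With the treatments set directly against each other, Tgfa was higher with PTH by 0.87 on the log2 scale (SE 0.22, 95% interval 0.41 to 1.33, adjusted p = 0.0156). That difference passed the p-value but not the 2-fold limit, and 10.0% of all genes passed the p-value alone in this comparison. The pass was lost in 9 of 13 refits, among them the filter at 0.1 RPKM (adjusted p = 0.0615), 1 fit of all 6 libraries (adjusted p = 0.422) and each refit with a library left out, where the adjusted p was 0.164 to 0.388 and the log2 difference 0.46 without PTH replicate 1 and 1.28 without PTH replicate 2. Between PTH and YKL-05-093, 1.21% of the genes were called in either direction, and no ligand was among them. In 26.3% of the genes both PTH libraries lay above both of YKL-05-093, as for Tgfa. An antisense transcript, Gm43917, shares 118 exonic bases with Tgfa on the opposite strand, and whether reads were counted by strand is not stated.

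Hbegf, which binds EGFR and ERBB4, was lower in the YKL-05-093 libraries, but the difference did not pass the test. Its level was 1.28 and 1.24 RPKM with vehicle and 1.08 and 1.20 RPKM with PTH, from 53 to 82 reads. With YKL-05-093 it was 0.396 and 0.835 RPKM, from 19 and 41 reads, so that this pair differed more than the other replicate pairs. Both lay below every other library. Against vehicle the log2 fold change was -0.997 (SE 0.34, 95% interval -1.80 to -0.19, adjusted p = 0.428 by limma), in a comparison in which 0.666% of the genes were called and 22.1% had both libraries below those of vehicle. With PTH it was -0.14 (95% interval -0.64 to 0.36, adjusted p = 0.844), and PTH exceeded YKL-05-093 by 0.86 (95% interval 0.24 to 1.48, adjusted p = 0.0789).

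Nrg1 was not called in any comparison. Neuregulin 1 is the main ligand of ERBB3 and ERBB4. The libraries held 5.37 and 4.85 RPKM with vehicle, 6.98 and 6.84 RPKM with PTH, and 5.74 and 6.26 RPKM with YKL-05-093. The conditions did not overlap, in the order vehicle, YKL-05-093, PTH, but such separation was common, with 19.1% of all genes higher in both PTH than in both vehicle libraries, 15.7% for YKL-05-093 over vehicle and 26.3% for PTH over YKL-05-093. The log2 fold change was 0.43 for PTH against vehicle (SE 0.16, 95% interval 0.05 to 0.81, adjusted p = 0.308 by limma) and 0.23 for YKL-05-093 (SE 0.17, 95% interval -0.17 to 0.62, adjusted p = 0.815). A long noncoding gene on the opposite strand, Gm26578, shares 482 exonic bases with Nrg1.

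**Figure D2:**
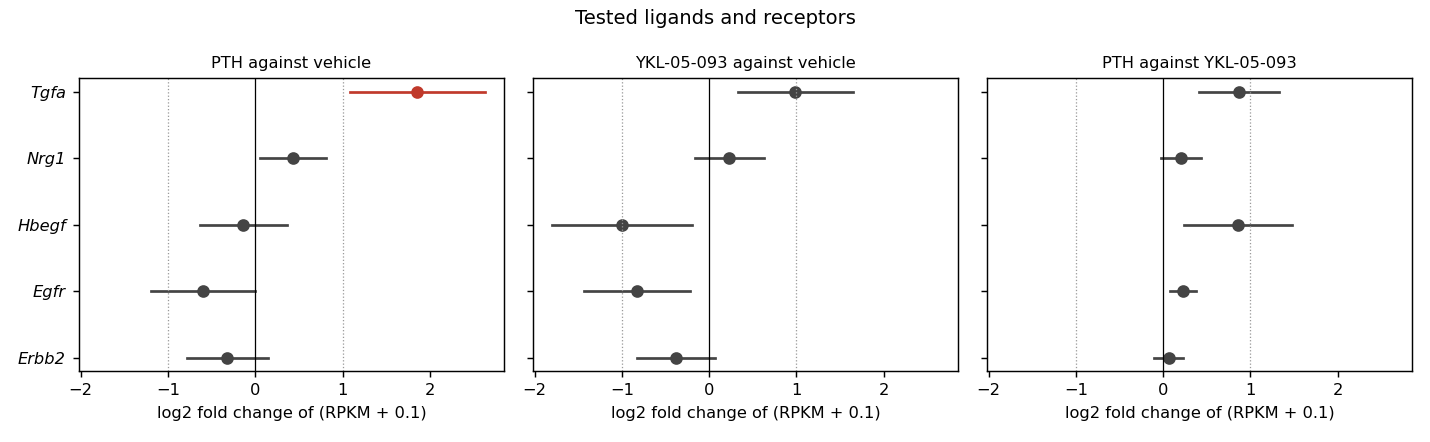
Log2 fold change of (RPKM + 0.1) for the 3 ligands and 2 receptors that could be tested, in each of the 3 comparisons. Dots are limma estimates, bars are 95% intervals, dotted lines mark a 2-fold change and red marks a call. Tgfa with PTH (1.86) is the sole call at the filter of 0.5 RPKM and was not called at 0.1 RPKM. The intervals of Erbb2 include 0 in all 3 panels.

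Areg, Ereg, Epgn and Btc form a cluster on chromosome 5, and all 4 stayed below the filter in every library. The cluster spans 375.5 kb from Epgn (chr5:91027464-91035215) through Ereg (chr5:91074622-91093646) and Areg (chr5:91139599-91148432), all on the plus strand, to Btc (chr5:91357261-91402994, minus strand). Areg, the PTH target of osteoblasts, had 0 and 2 reads with vehicle, 1 and 1 with PTH, and 0 and 0 with YKL-05-093. No response of Areg was detectable at this depth and at 4 h, the only time sampled. The 3 reads of the floor correspond to 0.0899 to 0.144 RPKM, and a level under that bound cannot be told from 0.

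The other members of the cluster gave more reads than Areg. Ereg was at 0.249 and 0.225 RPKM with vehicle, 0.347 and 0.152 RPKM with PTH, and 0.0955 and 0.105 RPKM with YKL-05-093. The PTH libraries lay on either side of the vehicle pair, and both YKL-05-093 libraries lay below all others. With the filter lowered to 0.1 RPKM, Ereg could be tested, and its log2 fold change after YKL-05-093 was -0.75 (SE 0.30, adjusted p = 0.593 by limma). Btc, a ligand of both EGFR and ERBB4, was at 0.119 and 0.336 RPKM with vehicle, 0.403 and 0.237 RPKM with PTH, and 0.240 and 0.168 RPKM with YKL-05-093. Its 3 conditions overlapped. Epgn, a low-affinity EGFR ligand, had 4 and 4 reads with vehicle, 3 and 1 with PTH, and 4 and 8 with YKL-05-093, and was thus at or under the floor in both PTH libraries. At the lower filter, the 95% interval of the log2 fold change with PTH ran from -0.82 to 0.81 for Ereg. It ran from -0.58 to 1.41 for Btc and from -1.69 to 0.85 for Epgn. These intervals are on the log2(RPKM + 0.1) scale, which understates changes of low genes. A 2-fold rise in level is thus not excluded for any of the 3.

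**Figure D3:**
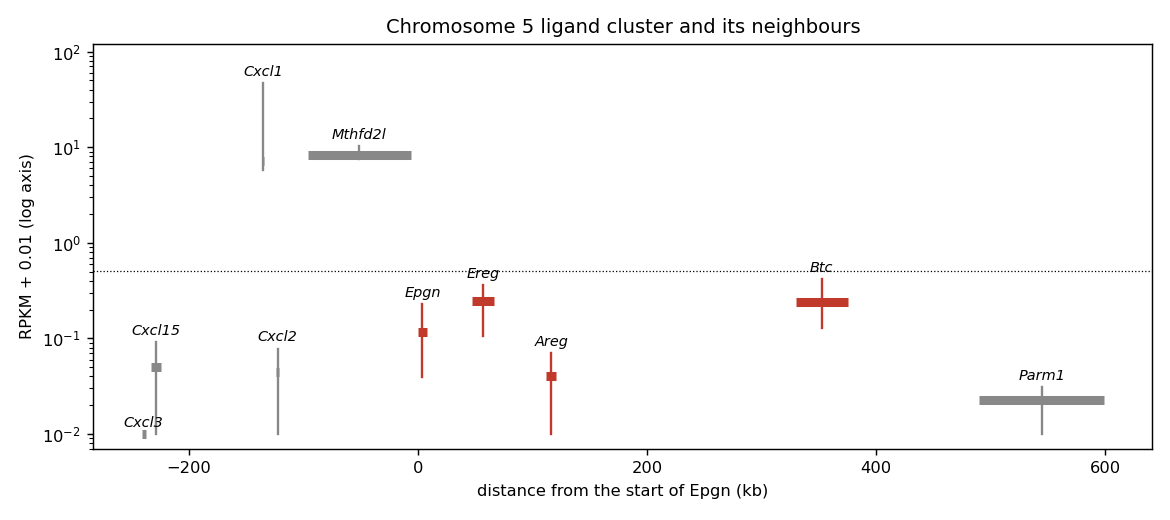
Levels of the protein-coding genes around the chromosome 5 ligand cluster, as RPKM + 0.01 on a log axis, against the distance from the start of Epgn in kb. Thick bars span each gene at its vehicle mean, thin lines give the range over the 6 libraries, red marks ligands of the family, and the dotted line marks the filter of 0.5 RPKM. The 4 ligands lie below the line in every library, while the neighbouring Mthfd2l, at 7.54 to 10.2 RPKM, lies above it.

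Among the protein-coding neighbours outside the cluster, levels were mixed. Mthfd2l, a mitochondrial folate enzyme gene whose end lies 6.1 kb before Epgn, ranged from 7.54 to 10.2 RPKM, and the chemokine gene Cxcl1 from 5.72 to 46.8 RPKM. Cxcl2, Cxcl3, Cxcl15 and, beyond Btc, Parm1 had at most 3 reads in any library.

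Nrg2 was at 0 reads in 5 of the 6 libraries, with 3 reads in 1 YKL-05-093 library (0.0506 RPKM), and no fold is given for it. Of the family ligands outside the chosen 8, Egf ranged from 0.253 to 0.428 RPKM over the 6 libraries, Nrg4 had 4 to 8 reads in each and Nrg3 none. None of them reached the filter.

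Among the 6 EGFR ligands of the chosen 8, Tgfa took a larger share of the transcripts in the treated libraries than with vehicle, and Hbegf a smaller one. These 6 together summed to 2.26 and 2.23 RPKM with vehicle, 4.14 and 2.86 RPKM with PTH, and 1.64 and 2.23 RPKM with YKL-05-093. Egf, which also binds EGFR and ranged from 0.253 to 0.428 RPKM, is not in these sums, so the shares of all EGFR ligands would be smaller. The PTH sums lay above the others, whereas those of YKL-05-093 overlapped vehicle. Hbegf made up 56.5% and 55.6% of the sum with vehicle, 26.0% and 41.8% with PTH, and 24.2% and 37.5% with YKL-05-093. Tgfa made up 21.5% and 12.9% with vehicle, 53.0% and 42.0% with PTH, and 48.5% and 40.4% with YKL-05-093. In each of the 4 treated libraries Tgfa was thus the most abundant EGFR ligand, and in both vehicle libraries Hbegf was, although in PTH replicate 2 they stood at 1.20 RPKM each. These shares are descriptions without a test, since 2 libraries against 2 cannot give an exact permutation p below 0.333, and they share the dependence on gene length given above. Over all 8 ligands, at the deposited gene lengths, Nrg1 made up 62.8% to 77.3% of the sum in every library.

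**Figure D4:**
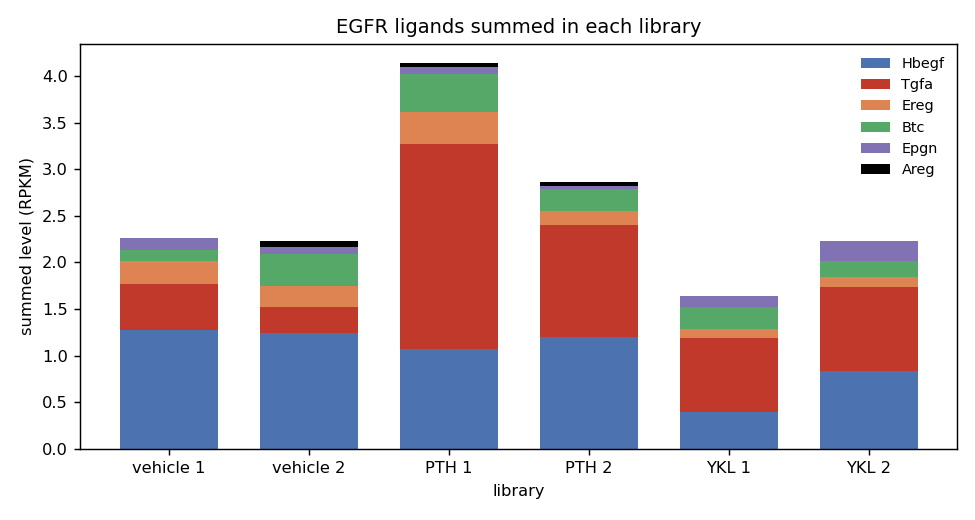
Summed level of the 6 EGFR ligands of the chosen 8, without Egf, in each library (RPKM, stacked bars from 0), coloured by ligand. Tgfa takes 40.4% to 53.0% of the sum in the 4 treated libraries and 12.9% to 21.5% with vehicle, and the sum is highest in the PTH libraries (4.14 and 2.86 RPKM).

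The receptors for these ligands were expressed unevenly, and neither of the 2 that could be tested, Egfr and Erbb2, was called. Egfr was at 9.84 and 5.73 RPKM with vehicle, 4.97 and 4.88 RPKM with PTH, and 4.23 and 4.18 RPKM with YKL-05-093. All treated libraries lay below both vehicle libraries, as for 24.0% of the genes tested with PTH and 22.1% with YKL-05-093, and the vehicle libraries themselves differed widely. The log2 fold change of Egfr was -0.60 with PTH (SE 0.25, adjusted p = 0.373 by limma) and -0.82 with YKL-05-093 (SE 0.26, adjusted p = 0.360). Without vehicle replicate 2, Egfr was called lower after YKL-05-093 (-1.21, adjusted p = 0.0267), and without vehicle replicate 1 it was not (-0.44, adjusted p = 0.0935). Erbb2, the partner without a ligand, ranged from 9.72 to 15.1 RPKM, with a log2 fold change of -0.32 (adjusted p = 0.590) and -0.38 (adjusted p = 0.671). Erbb3, through which Nrg1 can signal with ERBB2, had 5 to 13 reads in each library. Erbb4 had at most 1 read in any library and was not detectable.

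Genes around the ligands were read from lists written from general knowledge, but with earlier results of these data known. Of 12 genes of ligand shedding and processing, such as Adam17, Adam10 and Furin, 11 were tested and 0 were called in any of the 3 comparisons, with a median log2 fold change of -0.14 for PTH and -0.02 for YKL-05-093. Over all genes tested the medians were -0.03 and -0.04, and 1.91% were called for PTH, 0.666% for YKL-05-093 and 1.21% between them. The 8 adaptors between the receptors and RAS or PI3K, such as Shc1 and Grb2, also gave 0 calls, with medians of 0.04 and 0.01. Of 10 genes of receptor feedback and turnover, 0 were called after PTH and 1 after YKL-05-093, Socs5, a suppressor of cytokine signalling that promotes EGFR breakdown. It fell from 5.53 and 3.85 RPKM with vehicle to 1.56 and 1.77 RPKM (log2 fold change -1.42, SE 0.21, adjusted p = 0.0459 by limma), and this call held in 5 of 13 alternatives, with an adjusted p of up to 0.500 without YKL-05-093 replicate 1. Errfi1, whose product inhibits EGFR and which is named here after its values were seen, had a log2 fold change of 0.96 with PTH (SE 0.15, adjusted p = 0.0255), under the 2-fold limit (1.26% of all genes passed that p and were higher), and 0.28 with YKL-05-093 (adjusted p = 0.737).

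The transcripts that follow ERK activity, a pathway that EGFR feeds among other inputs, differed between the treatments. Of 18 listed genes, 16 were tested. After PTH, 1 was called higher (Fos) and 1 lower (Egr2), with a median log2 fold change of -0.05, beside 0.813% of all genes called lower. After YKL-05-093, 5 were called lower and 1 higher (Fos), with a median of -0.95, in a comparison in which 0.274% of all genes were called lower. Directly, PTH exceeded YKL-05-093 for 9 of the 16, with 0 in the other direction and a median of 1.06, beside 0.737% of all genes called higher with PTH and 0.470% lower. The YKL-05-093 count of 5 became 4 with a pseudocount of 1 RPKM, 1 with the variance trend on the mean value and 0 with no filter. It was 7 with 1 fit of all 6 libraries and with the replicate block. The direct count of 9 became 5 with the pseudocount of 1 RPKM, 6 with that trend, 3 with no filter and 8 with 1 fit. With the pseudocount of 1 RPKM the medians were -0.70 and 0.71. With 1 library left out, the medians stayed between -1.10 and -0.93 and between 0.92 and 1.21. The calls were not all kept in these refits, which leave 1 library in a condition. Those of the direct comparison were lost without either PTH replicate.

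The members named here have different parts in the pathway. Dusp6, the ERK phosphatase, was at 8.86 and 9.25 RPKM with vehicle, 7.46 and 8.84 RPKM with PTH, and 1.04 and 1.23 RPKM with YKL-05-093, a fall of the last by 2.90 on the log2 scale (SE 0.17, adjusted p = 0.00230 by limma). Spry4, an inhibitor of RAS signalling, fell by 2.56 after YKL-05-093 (SE 0.27, adjusted p = 0.0183). The immediate-early transcription factor genes Egr2 and Egr1 fell by 2.58 and 2.36, and Egr2 also fell by 1.09 after PTH (adjusted p = 0.0261), a call that held in 7 of 13 alternatives, with an adjusted p of up to 0.590 without PTH replicate 1. The list was written with earlier results of these libraries known, in which Dusp6, Egr2 and Spry4 had already stood out, so its counts are not independent evidence. Whether the ligand levels, or any of the kinases that YKL-05-093 engaged, had a part in these values was not tested.

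As a check that both agents acted, 12 genes of the cAMP and PTH response were read in the same way. This list too was chosen with earlier results of these libraries known, so its counts are not independent evidence. After PTH 9 of them were called higher and after YKL-05-093 also 9, and 0 were lower, with medians of 1.82 and 2.37, beside 1.09% of all genes called higher after PTH and 0.393% after YKL-05-093. Tnfsf11, Pde4b, Cited1 and Nr4a3 were below 0.5 RPKM in both vehicle libraries and entered the test only through treated libraries. With the filter at 0.1 RPKM the counts were 9 and 8. The PTH count was 3 without either PTH replicate, the YKL-05-093 count was 5 without YKL-05-093 replicate 1 and 3 with the variance trend on the mean value, and both were 0 with no filter. The receptor of vitamin D, Vdr, went from 4.41 and 3.31 RPKM with vehicle to 59.6 and 56.9 RPKM with PTH and 54.7 and 54.9 RPKM with YKL-05-093. Tnfsf11, which encodes RANKL, rose by 4.82 on the log2 scale with PTH (SE 0.21, adjusted p = 0.000463 by limma) and by 2.82 with YKL-05-093 (SE 0.26, adjusted p = 0.00941). The nuclear receptor genes Nr4a2 and Nr4a1 rose by 2.39 and 1.25 with PTH and by 2.96 and 3.18 with YKL-05-093. At 4 h, the only time sampled, no Areg transcript above the floor was thus seen in libraries in which these genes rose. Earlier times are not covered. Of the 10 genes of this list with a promoter window, 0 hold the palindrome found in the Areg window and 7 hold a short site. A gene had up to 4 windows, and a site in any of them counted. Of all single windows, only 1.79% hold the palindrome and 20.8% a short site, so these counts set no contrast with Areg.

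**Figure D5:**
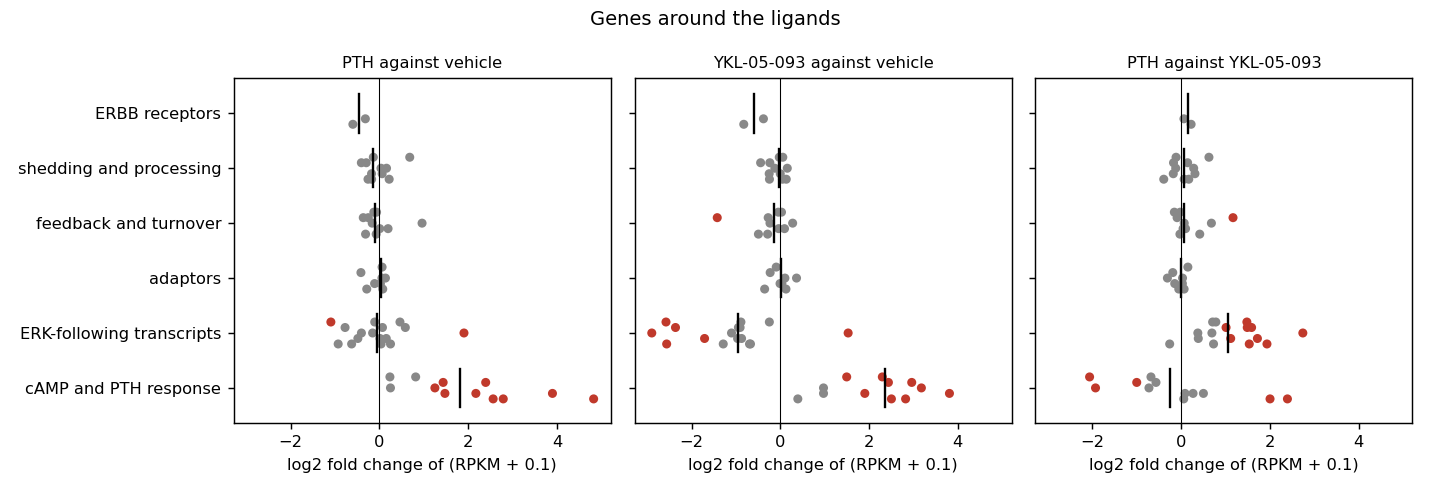
Log2 fold change of (RPKM + 0.1) for each tested gene of 6 lists, in the 3 comparisons. Each dot is a gene, red marks a call, and black bars are list medians. The receptor, shedding and adaptor lists have no call, the ERK list has 5 genes called lower after YKL-05-093, and the cAMP list has 9 called higher after each agent.

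The genes whose profile over the 6 libraries was most like that of Tgfa were Prex1, Slc43a2, Gm23002, Wnt9a and Hdac4. Likeness was the root mean square difference of log2(RPKM + 0.1), each profile centred on its vehicle mean, and the 5 had values of 0.191, 0.220, 0.241, 0.246 and 0.254, against a median of 1.29 over all tested genes. Prex1, an activator of the GTPase RAC, was at 1.24 and 0.900 RPKM with vehicle, 4.31 and 2.88 RPKM with PTH, and 2.07 and 2.87 RPKM with YKL-05-093. Wnt9a, a WNT ligand, was at 0.182 and 0.196 RPKM with vehicle, 1.34 and 0.848 RPKM with PTH, and 0.484 and 0.418 RPKM with YKL-05-093. Slc43a2 encodes an amino acid transporter, Hdac4 a class IIa histone deacetylase, and Gm23002 a small nuclear RNA. In each of them, as in Tgfa, PTH replicate 1 held the highest value of the 6 libraries. The 5 were picked for likeness over these same libraries, so this shared trait and their distance from the median follow from the choice.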

How the data were processed

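Strand-marking libraries were made from Ocy454 RNA after removal of ribosomal RNA, 2 for each of 3 conditions. The submitters' processing notes and the methods name CASAVA 1.7, STAR, mm10, HTSeq v.0.6.0 and Ensembl release 75. The authors deposited RPKM values on a linear scale, 1 column a library, without scaling between libraries. The gene lengths they used, and whether counting was by strand, are not given in the sources used here. The tables of single libraries hold the same values as the series table. The authors tested with edgeR.

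Here, the reads behind each RPKM were recovered from its steps (99.7% of the totals). limma 3.58.1 in R 4.3.3 was run on log2(RPKM + 0.1), a scale that understates changes of low genes, for the 14264 genes that reached 0.5 RPKM in 2 or more of 6 libraries, with the prior variance trended on the mean log2 of the recovered reads. Each comparison used its own 4 libraries, and p-values were adjusted by Benjamini-Hochberg over all genes tested. Calls needed an adjusted p under 0.05 and a log2 fold change beyond 1 in size. Comparisons of both agents with vehicle share the vehicle libraries. Recovery and fits were tested on simulated data.

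Named are all 8 ligands, every receptor and other ligand of the family, up to 4 called genes a list, largest change first, and the 5 genes most like a called ligand. Fos, Errfi1, the markers with values and the cluster's neighbours fall outside this rule and were named after their values were seen. Of symbols with more than 1 identifier, the first was taken in the lists. The members and lists were chosen with earlier results of these data known. The alternatives were 2 pseudocounts, a lower filter, no filter, 1 fit of all libraries, another variance trend, voom on recovered reads, median-of-ratios scaling, a replicate block, each library left out and no fold limit. Positions are from GENCODE M21 and promoter windows from RefSeq, both GRCm38. No positions are given for the genes on chromosome 18. Protein sequences were not used here.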

Additional observations from a re-analysis of the deposited data

Results flagged for a closer look

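Each difference given here is between PTH and YKL-05-093 from the direct comparison of their 4 libraries (log2 scale, PTH minus YKL-05-093, limma with Benjamini-Hochberg adjustment), and was listed because that test of the difference passed an adjusted p under 0.05. Among the ligands this held for Tgfa (0.87, adjusted p = 0.0156), with 2.19 and 1.20 RPKM after PTH against 0.794 and 0.902 RPKM after YKL-05-093, but the pass was lost in 9 of 13 refits (adjusted p up to 0.422). Among the genes that follow ERK activity it held for Dusp6 (2.74), Spry4 (1.93), Egr1 (1.59) and Egr2 (1.48), all higher with PTH, with adjusted p from 2.48e-09 to 0.000437, and for Fos (0.38, adjusted p = 0.0429). Socs5 was higher with PTH by 1.17 (adjusted p = 4.69e-06) and Errfi1 by 0.68 (adjusted p = 5.76e-06). Of the cAMP genes, Tnfsf11 was higher with PTH by 2.00 (adjusted p = 2.58e-08), whereas Nr4a1 (-1.93, adjusted p = 2.29e-09) and Nr4a2 (-0.57, adjusted p = 0.000550) were lower with PTH. Among the markers, Bglap (1.16) and Pdpn (0.82) were higher and Sp7 (-1.14), Mef2c (-0.83) and Kdr (-0.70) lower with PTH, with adjusted p from 4.35e-07 to 0.00603. Of the genes most like Tgfa, Wnt9a (1.09), Slc43a2 (0.67), Hdac4 (0.57) and Prex1 (0.51) were higher with PTH, as were Cxcl1 (0.87) and Mthfd2l (0.37) beside the ligand cluster, with adjusted p from 2.70e-06 to 0.0450. Only genes named in the text were looked at, and 10.0% of all tested genes passed the same threshold. The 2 libraries of each treatment are closer to each other than the vehicle libraries are, and the part of this in the number of such differences was not tested.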

How the results depend on the processing

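Of the 126 values of the 3 tested ligands under alternatives, 119 kept their direction and their side of the threshold, 6 lost the call, 1 gained it and 0 reversed. All 6 losses were Tgfa with PTH: the count of ligands called fell from 1 to 0 with a pseudocount of 1 RPKM, a filter at 0.1 RPKM (adjusted p = 0.0539), no filter (adjusted p = 0.235) and the variance trend on the mean value (adjusted p = 0.144), and ranged from 0 to 1 when each replicate was left out. Without a PTH replicate the lone library was assumed to vary like those of vehicle, and 14 genes were called in all for PTH, against 272. Over all alternatives the adjusted p of Tgfa with PTH ran from 2.21e-09 to 0.427. The adjusted p of Tgfa between PTH and YKL-05-093 passed 0.05 in 4 of 13 refits. Without the fold limit, the count for PTH against YKL-05-093 went from 0 to 1 (Tgfa). The order of the vehicle levels, checked by 2 alternatives added after the data were seen, kept all 8 places with M21 exon lengths and 5 to 6 places with 1 vehicle library left out.

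Over all genes, 272 were called for PTH, 95 for YKL-05-093 and 172 between them. These counts became 0, 0 and 149 without a filter (2341, 1735 and 3425 at an unadjusted p under 0.05), 160, 6 and 137 with the trend on the mean value, and 334, 173 and 102 with 1 fit of 6 libraries. With a pseudocount of 1 RPKM the YKL-05-093 and direct counts were 55 and 98, and with the filter at 0.1 RPKM the YKL-05-093 count was 57. Whether the replicate numbers pair the libraries is not given in the labels. Over all genes, the correlations of same-numbered deviations were near 0, at -0.034, -0.054 and -0.049. Such values cannot exclude a pairing that shows in some genes only. The mitochondrial share of the reads was higher in replicate 2 than in replicate 1 of each condition. With 1 library left out, the counts ran from 14 (without either PTH replicate) to 671 (without vehicle replicate 2) for PTH, from 11 (without YKL-05-093 replicate 1) to 320 (without vehicle replicate 2) for YKL-05-093, and from 0 (without either PTH replicate) to 155 between them. With the replicate block the counts were 441, 215 and 196, and 1, 0 and 0 ligands were called, as without it. Depth limits the 5 untested ligands, of which Areg and Nrg2 had at most 3 reads in every library.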
